A study of Mus musculus with 24 samples.

Results

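Gsdmc2 and Gsdmc3 are 2 of the 4 protein-coding gasdermin C genes of the mouse. They were followed here array by array in colon tissue. They entered as the targets named AI987692, whose current symbol is Gsdmc2, and GSDMC3, 2 of the 18097 targets of the gene table, and both lay above the median level and were among the 9048 targets tested. Both had been picked because they were lower in ATB-346-treated than in vehicle-treated ApcMin colon. Differences of the pair between groups that include either of those are therefore given as a description, without a test. Tests were run on measures the choice did not use, namely naproxen-treated ApcMin colon against wild type, the replicate numbering and its interaction with the drugs, and correlations between arrays within groups or on residuals from the groups.

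Gasdermins are a family of proteins that are made in an inhibited form. When a protease cuts the linker between the N-terminal and C-terminal domains, the freed N-terminal part assembles into pores in the plasma membrane, which release cytosolic contents and can end in a lytic cell death called pyroptosis. In the mouse the gasdermin C genes are expressed mainly in the gut epithelium, where they are known to be induced by the type 2 cytokines IL-4 and IL-13 through STAT6, for example in worm infection, and caspase-8 has been described as a protease that cuts gasdermin C.

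Total RNA of mouse colon was hybridised to 24 single-colour Illumina bead arrays, 1 per sample. The groups were C57Bl/6 wild-type mice given vehicle (n = 4) and mice carrying ApcMin, a mutation in 1 copy of the tumour suppressor Apc that gives intestinal tumours, given vehicle (n = 8), naproxen at 10 mg/kg (n = 6) or ATB-346 at 14.5 mg/kg (n = 6). Naproxen is a non-steroidal anti-inflammatory drug that inhibits cyclooxygenases, and ATB-346 is a naproxen derivative that releases hydrogen sulfide. The strain of all samples is given as C57Bl/6, every mouse received gavage once a day for 7 days from 6 weeks of age in a vehicle of DMSO and carboxymethylcellulose, and the colon was collected at the age of 14 weeks, when dosing had been over for 7 weeks. Nothing in the labels says whether tumour or normal mucosa was taken, from which stretch of colon, or whether arrays came from different animals. The p-values below therefore reflect the scatter among samples, which may be technical. Replicates carried the numbers 1 to 4 in every group and 5 to 8 only in ApcMin groups. The labels do not say what the numbering stands for, but 37.1% of all tested targets differed between arrays numbered 5 to 8 and arrays numbered 1 to 4 (3358 of 9048, limma with Benjamini-Hochberg adjusted p under 0.05).

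The gasdermin C genes lie side by side on chromosome 15. In RefSeq's annotation of build GRCm38.p6 the cluster runs from position 63775971 to 63925453, a stretch of 149483 base pairs with 4 protein-coding Gsdmc genes and 3 Gsdmc-named pseudogenes. Gsdmc comes first (63775971 to 63808739), then Gsdmc2 (63824328 to 63845193), Gsdmc3 (63857605 to 63878579) and Gsdmc4 (63891140 to 63912319). Gsdmc4 had no target in the gene table. The paralogues are similar in sequence, so probes for Gsdmc2 or Gsdmc3 may also have bound transcripts of their neighbours, which was not tested.

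The promoter of Gsdmc3 is shown because the targets of these neighbouring genes moved together across arrays, as given below. It is the window from 250 bases before to 50 bases after the transcript start in RefSeq (build GRCm38.p6, chr15:63878509-63878808, minus strand). The capitals mark the only match to TATATAA, a string like the box found at many core promoters, whose letters were picked after the sequence had been read. Of Gsdmc2 and Gsdmc3, 1 matched an entry of the promoter table.
Gsdmc3 promoter: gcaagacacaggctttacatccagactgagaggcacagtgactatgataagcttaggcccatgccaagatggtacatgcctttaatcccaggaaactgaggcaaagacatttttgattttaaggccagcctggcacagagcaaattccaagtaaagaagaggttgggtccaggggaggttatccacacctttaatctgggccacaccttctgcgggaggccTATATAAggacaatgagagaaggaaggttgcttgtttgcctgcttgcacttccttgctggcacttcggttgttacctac
The match began 29 bases before the transcript start used for this window. The annotated end of this minus-strand gene, 63878579, lies upstream of that start, so the distance holds for this start only. Read on both strands, TATATAA occurred in 3.24% of 32851 promoter windows of the same length. A palindrome of TTC and GAA with any 4 bases between them, the form of site that STAT6 is known to bind, did not occur in this window, and 6.95% of all windows held it. The search covers these 300 bases only.

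Gsdmc2 was measured at log2 11.83, 11.58, 11.68 and 11.42 in the 4 wild-type arrays, a mean of 11.63 ± 0.17 (SD, n = 4). These are normalized log2 signals, in which a difference of 1 is a doubling. In ApcMin vehicle colon it ran from 11.41 over a median of 12.23 to 13.06, with a mean of 12.21 ± 0.55 (SD, n = 8). The vehicle arrays were the most widely spread of the 4 groups and held both the array with the highest level, numbered 8, and an array below all wild-type arrays, numbered 1.

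In naproxen-treated ApcMin colon Gsdmc2 ran from 11.24 over a median of 11.46 to 12.29 (mean 11.57 ± 0.39, SD, n = 6). In ATB-346-treated ApcMin colon it ran from 10.91 over a median of 11.13 to 11.52 (mean 11.18 ± 0.23, SD, n = 6). All but 1 of the ATB-346 arrays, 5 of 6, lay below the lowest vehicle array, and the same number lay below the lowest wild-type array. The exception was ATB-346 array 4. The ATB-346 arrays lay wholly below the vehicle arrays for 0.0884% of all tested targets, and wholly below the wild-type arrays for 0.729%. Gsdmc2 was not among these. A split of 5 of 6 arrays is less strict, and its share over all targets was not counted. On the scale of the deposited intensities, before normalization, Gsdmc2 had a median of 4902 in vehicle arrays and 2270 in ATB-346 arrays, against 3135 in wild type and 3009 in naproxen arrays.

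Gsdmc3 was measured at log2 9.91, 10.51, 10.28 and 9.42 in the wild-type arrays (mean 10.03 ± 0.48, SD, n = 4). In ApcMin vehicle colon it ran from 9.67 over 10.18 to 10.75 (mean 10.22 ± 0.34, SD, n = 8), so that wild type and vehicle overlapped through most of their ranges. In naproxen-treated colon it ran from 8.75 over 9.53 to 10.13 (mean 9.49 ± 0.46, SD, n = 6). In ATB-346-treated colon it ran from 8.71 over 8.93 to 10.32 (mean 9.15 ± 0.62, SD, n = 6). For this gene, 5 of 6 naproxen arrays and 5 of 6 ATB-346 arrays lay below the lowest vehicle array, the others being naproxen array 3 and ATB-346 array 4. Of the naproxen arrays, 1 and 4 were only just below it, at 9.65 and 9.64 beside 9.67. The naproxen arrays lay wholly below the vehicle arrays for 0.0221% of all tested targets, and Gsdmc3 was not among these. A split of 5 of 6 arrays is less strict, and its share over all targets was not counted. ATB-346 array 4, at 10.32, stood 1 log2 unit above the next ATB-346 array, at 9.30, and above the vehicle median.

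Set side by side, the group differences of the pair lay close to each other in the drug contrasts with vehicle. Vehicle-treated ApcMin minus wild-type colon was 0.59 ± 0.23 (SE of the fit) for Gsdmc2 and 0.19 ± 0.27 for Gsdmc3. For Gsdmc2 the high vehicle values, from 12.49 to 13.06, were those of arrays 2, 3, 5 and 8. Vehicle arrays 1, 4, 6 and 7 ran from 11.41 to 11.97, beside 11.42 to 11.83 in wild type. The Gsdmc3 value rested on single wild-type arrays, since it was -0.01 without wild-type array 4 and 0.35 without wild-type array 2, and it was 0.42 ± 0.26 with the numbering as a term. ATB-346 minus vehicle, the contrast by which the genes were picked, was -1.03 ± 0.21 for Gsdmc2 and -1.07 ± 0.24 for Gsdmc3, which is 0.490 and 0.475 times the vehicle level. Naproxen minus vehicle was -0.64 ± 0.21 for Gsdmc2 and -0.73 ± 0.24 for Gsdmc3, 0.641 and 0.603 times the vehicle level. The drugs were given at different doses and share the vehicle arrays, so these values are given next to each other and not compared. Against wild type, ATB-346-treated colon stood at -0.44 ± 0.25 for Gsdmc2 and -0.88 ± 0.29 for Gsdmc3. Among all 9048 tested targets, none was called in any of these contrasts (0%; limma, adjusted p under 0.05), while 582, 632, 790 and 538 had an unadjusted p under 0.05 in the order just given.

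The drug differences of the pair are given within each part of the numbering as a description. The pair was chosen on ATB-346 minus vehicle over these same arrays, so its sign in each part was largely set by that choice. Arrays numbered 5 and above were 4 of vehicle but only 2 of each drug. Within arrays 1 to 4, ATB-346 minus vehicle was -0.83 for Gsdmc2 and -0.95 for Gsdmc3, and within arrays numbered 5 and above it was -1.30 and -1.42. Naproxen minus vehicle was -0.47 and -0.62 within arrays 1 to 4 and -0.85 and -1.05 within the others. The change of a drug difference with the numbering was between -0.47 ± 0.46 (SE) and -0.37 ± 0.44 for the pair and either drug, and limma called no target for it (adjusted p at least 0.9998, 0 of 9048). With the numbering as a term, ATB-346 minus vehicle was -1.03 ± 0.21 for Gsdmc2 and -1.15 ± 0.22 for Gsdmc3, and 28 of 9048 targets (0.309%) were called in that fit. The pair had been chosen on this contrast, so nothing is read from that share.

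In bulk tissue, fewer cells that express a gene and less of its RNA per cell cannot be told apart. The check of the tissue found that 18 of the 24 listed absorptive colonocyte genes passed the filter on low values. Their mean level ran from 11.43 to 12.07 over all arrays, and 4 of 6 naproxen arrays lay below every array of the other groups, whose lowest was 11.59. MHC class II genes, which mark antigen-presenting cells and are also made by gut epithelium, were lower in 10 of 10 members for ATB-346 minus vehicle (median -0.31) and in 10 of 10 for naproxen minus vehicle (median -0.17). Their mean ran from 8.75 to 8.97 in wild-type arrays, with vehicle between 8.65 and 9.62, naproxen between 8.48 and 8.93 and ATB-346 between 8.44 and 8.86. Over all tested targets the median difference was 0.01 in either drug contrast with vehicle. Limma called 0 of these 10 in each group contrast. For ATB-346 minus vehicle 4 of them had an unadjusted p under 0.05, beside 632 of all 9048 tested targets. With the numbering as a term it was 8, and the count over all targets in that fit was not taken. Fibroblast and matrix genes were lower in 9 of 10 members for ATB-346 minus vehicle (median -0.16, 0 called), and their mean lay between 9.68 and 10.37 in vehicle and between 9.52 and 10.08 in ATB-346 arrays. The part of these lists in the values of the pair was not tested. Pancreatic acinar transcripts, such as those of the lipase gene Pnlip and the elastase gene Cela2a, were also highest in vehicle arrays. The mean of the 20 acinar genes tested, of 23 listed, ran from 7.22 to 7.83 in wild-type arrays, from 7.29 to 13.89 in vehicle arrays, from 7.10 to 9.93 in naproxen arrays and from 7.11 to 7.60 in ATB-346 arrays. With the numbering and this mean as terms, ATB-346 minus vehicle was -0.92 ± 0.26 for Gsdmc2 and -0.90 ± 0.25 for Gsdmc3. The part of the acinar transcripts in the group differences was not tested further.

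Naproxen-treated ApcMin colon against wild type is the comparison of groups that the choice of the pair left free. Gsdmc2 differed by -0.05 ± 0.25 (SE), with a 95% interval from -0.57 to 0.46 (limma, adjusted p = 0.942). In an exact two-sided permutation test of the 10 arrays p was 0.83 for Gsdmc2. Gsdmc3 differed by -0.54 ± 0.29, with a 95% interval from -1.13 to 0.06 (limma, adjusted p = 0.529), and 3 of 6 naproxen arrays lay below all wild-type arrays. The naproxen arrays lay wholly below wild type for 0.542% of all tested targets, and Gsdmc3 was not among these. For how many targets 3 of 6 lay below was not counted. The exact permutation p was 0.114 for Gsdmc3, where 210 arrangements allow a smallest p of 0.00476. Neither difference was larger than the spread between arrays could give, and intervals of this width still hold differences of about 0.5 for Gsdmc2 and of over 1 for Gsdmc3. In this contrast limma called 0 of 9048 targets (0%), with 865 at an unadjusted p under 0.05. Within arrays 1 to 4 the Gsdmc3 difference was -0.33 (exact permutation p = 0.286, 4 arrays against 4).

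Osr2, a transcription factor gene whose level differs along the colon, moved with this contrast. Its level was 6.60, 7.23, 6.84 and 13.00 in the wild-type arrays and ran from 10.63 to 12.80 in naproxen arrays. Wild-type array 4, the array with high Osr2, was also the wild-type array with the lowest Gsdmc3, 9.42, and the lowest Gsdmc2, 11.42. With the numbering alone as a term, naproxen-treated minus wild type was -0.39 ± 0.27 for Gsdmc3 and -0.06 ± 0.26 for Gsdmc2. With the numbering and Osr2 as terms, it was -0.09 ± 0.26 for Gsdmc3 (limma, adjusted p = 0.993) and 0.05 ± 0.28 for Gsdmc2 (adjusted p = 0.995). The sign for Gsdmc2 thus turned and the Gsdmc3 difference came close to 0, in a fit chosen after seeing the data. In the same fit ATB-346 minus vehicle was -1.0 ± 0.21 for Gsdmc2 and -1.08 ± 0.19 for Gsdmc3. Osr2 ran from 6.64 to 12.89 in vehicle arrays and from 7.56 to 12.89 in ATB-346 arrays. Whether the sampled stretch of colon set the Gsdmc3 values was not tested.

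The third measurement of Gsdmc2 came from the target LOC100045250, a single probe that the platform annotation also gives to Gsdmc2. AI987692 is the mean of the other 2 Gsdmc2 probes. The third probe gave the same group order, with means of 11.45 in wild type, 11.94 in vehicle, 11.37 in naproxen and 10.86 in ATB-346 arrays, and an ATB-346 minus vehicle difference of -1.08 ± 0.26 (SE). Its residuals after removal of group and numbering followed those of AI987692 with r = 0.979 over 24 arrays, given as a description since both read 1 gene on 1 array. For the same reason its group order and its ATB-346 minus vehicle difference are no separate support for the contrast by which Gsdmc2 was chosen.

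The probes of Gsdmc2 did not shift alike with the numbering. With group as a term, arrays numbered 5 to 8 minus arrays 1 to 4 was 0.01 ± 0.18 (SE) for AI987692 (limma, adjusted p = 0.977) and -0.51 ± 0.20 for the third probe (adjusted p = 0.0454). The latter is a call in the lower direction, as were 22.4% of all tested targets. Relative to AI987692 the third probe lay between -0.28 and 0.12 in all 16 arrays numbered 1 to 4 and between -0.69 and -0.44 in all 8 arrays numbered 5 to 8, with no overlap. The mean shift of this ratio was -0.52, and the exact two-sided permutation test within ApcMin groups gave p = 6.35e-05, the smallest that its 15750 arrangements allow (0.000571 after adjustment over 9 exact tests). Such separation was common on these arrays: of 4192 pairs of probes for 1 gene, 17.1% had a ratio that split by the numbering in every ApcMin group in the same direction. Taken singly, the third probe split in this way from 1 of the 2 probes behind AI987692. Its ratio to the other ran from -0.31 to 0.27 in arrays 1 to 4 and from -0.76 to -0.30 in arrays 5 to 8, which overlap slightly. The 2 probes behind AI987692 did not split from each other, their ratio running from -0.19 to 0.53 in arrays 1 to 4 and from -0.15 to 0.41 in arrays 5 to 8.

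Gsdmc3 differed by -0.45 ± 0.19 (SE) between arrays numbered 5 to 8 and arrays 1 to 4, which did not pass in limma (adjusted p = 0.0645), although the exact permutation p for this gene alone was 0.0319 (0.0886 adjusted over 9 exact tests). The adjusted p for Gsdmc3 fell to between 0.0411 and 0.0437 when vehicle array 4, vehicle array 8 or ATB-346 array 2 was left out. The ratio of Gsdmc2 to Gsdmc3 stood 0.45 higher in arrays 5 to 8 (exact permutation p = 0.0208, adjusted 0.0886). Its group means were 1.60 in wild type, 1.99 in vehicle, 2.08 in naproxen and 2.04 in ATB-346 arrays. Wild type has no array numbered 5 to 8, so among ApcMin arrays 1 to 4 alone the means of 1.77, 1.92 and 1.89 are the closer match.

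**Figure D1:**
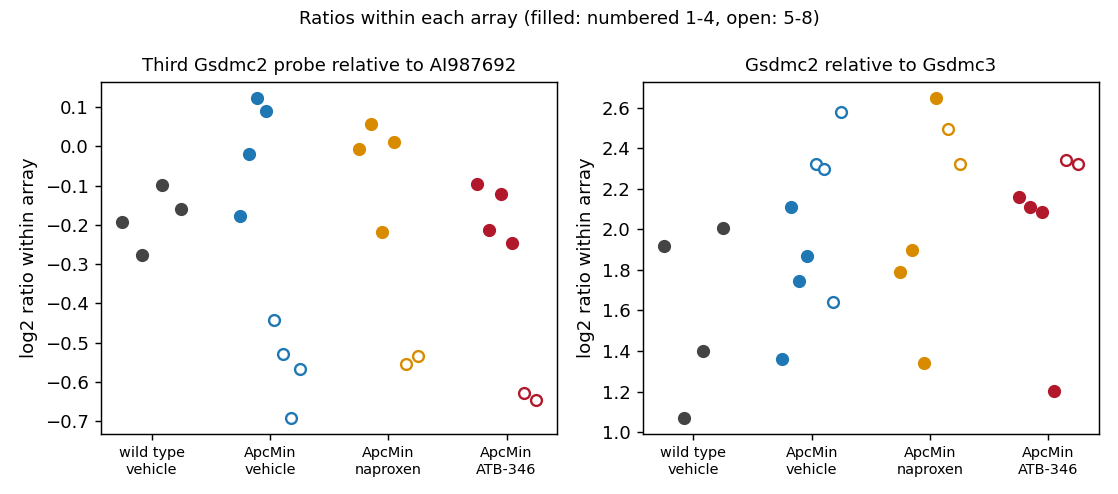
Log2 ratios within each of 24 arrays (vertical axes) of the third Gsdmc2 probe to AI987692 and of Gsdmc2 to Gsdmc3, by group, with filled points for arrays numbered 1 to 4 and open points for arrays 5 to 8. In the left panel the open points lie between -0.69 and -0.44 and all filled points lie higher.

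Across arrays the pair rose and fell together after removal of group and numbering, though many other targets followed Gsdmc3 about as closely. On residuals from both, Gsdmc2 and Gsdmc3 correlated with Pearson r = 0.574 (permutation p = 0.00402, adjusted 0.0281 over 14 relations) and Spearman rho = 0.66 (permutation p = 5e-04, adjusted 0.0070) over 24 arrays. Without the 2 arrays farthest from the median, r was 0.597. Within groups r was 0.68 in vehicle (n = 8, exact p = 0.0660), 0.33 in naproxen (n = 6, exact p = 0.492) and 0.89 in ATB-346 arrays (n = 6, exact p = 0.0139, adjusted 0.0486), with Spearman rho of 0.62, 0.54 and 0.83 and exact p of 0.115, 0.297 and 0.0583 (0.230, 0.378 and 0.163 adjusted), so the rank correlation in ATB-346 arrays did not pass. Without the farthest 2 arrays r was 0.72 in vehicle, 0.89 in naproxen and 0.72 in ATB-346 arrays. In the naproxen group, naproxen array 4, with the highest Gsdmc2 of its group at 12.29 and a Gsdmc3 of 9.64, was the array off the line. All these points share any cross-binding between the probes of the pair, whose part was not tested. For all tested targets, r with Gsdmc3 on residuals had 5th and 95th percentiles of -0.55 and 0.54. With Gsdmc2 these were -0.37 and 0.37. The permutations dealt the residuals freely, with no allowance for the terms removed, so p-values on residuals come out too small.

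**Figure D2:**
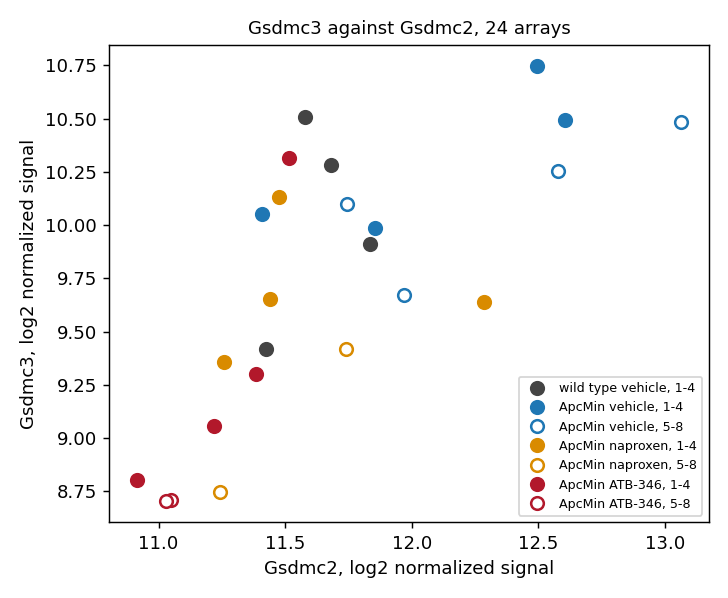
Gsdmc3 (vertical axis) against Gsdmc2 (horizontal axis), normalized log2 signal in each of 24 arrays, coloured by group, with filled points for arrays numbered 1 to 4 and open points for 5 to 8. Arrays high in one gene tend to be high in the other (r = 0.574 on residuals from group and numbering), and most ATB-346 arrays lie at the lower left.

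The other gasdermins divided into those with signal and those close to the bottom of the scale. Of 8 listed, 7 were in the gene table and 2, Gsdmd and Gsdme, passed the filter on low values. Gsdmc itself, the first gene of the cluster, stayed between 5.77 and 6.13 in every array, near the lowest normalized value of 5.65, on both of its targets. The skin-expressed Gsdma, Gsdma2 and Gsdma3 had group means between 5.83 and 6.29, and Pjvk, the pejvakin gene needed for hearing, between 5.96 and 6.07. With no detection p-value used, such values mark signals too low to compare.

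Gsdmd encodes the gasdermin that caspase-1 and caspase-11 cut in inflammasome responses. It had means of 9.87 ± 0.09 (SD, n = 4) in wild type, 9.88 ± 0.15 (n = 8) in vehicle, 9.71 ± 0.25 (n = 6) in naproxen and 9.63 ± 0.30 (n = 6) in ATB-346 arrays. ATB-346 minus vehicle was -0.25 ± 0.11 (SE) for Gsdmd and did not pass (limma, adjusted p = 0.677). The ranges of its 4 groups overlapped.

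Gsdme encodes gasdermin E, another pore-forming member of the family. Its means were 8.6 ± 0.78 (SD, n = 4) in wild type, 8.84 ± 0.80 (n = 8) in vehicle, 9.50 ± 0.53 (n = 6) in naproxen and 9.04 ± 0.81 (n = 6) in ATB-346 arrays. Naproxen-treated minus wild type was 0.90 ± 0.45 (SE) for Gsdme (limma, adjusted p = 0.522). Its arrays fell into separate sets, 11 between 7.98 and 8.61 and 13 between 9.22 and 10.00. The lower set held 3 wild-type, 4 vehicle, 1 naproxen and 3 ATB-346 arrays. In the upper set these numbers were 1, 4, 5 and 3.

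Gsdmc3 was mostly low where Gsdme was high. In the lower Gsdme set Gsdmc3 had a median of 10.13 and ran from 8.71 to 10.75, and in the upper set it had a median of 9.42 and ran from 8.71 to 10.48. Because Gsdme forms separate sets, no correlation over all arrays is given. Within the lower set r between the levels was -0.70 for Gsdmc3 and -0.38 for Gsdmc2, and within the upper set -0.36 and -0.54. Each set mixes arrays of all 4 groups in unlike numbers, so differences between groups enter these medians and r values. They are a description without a test. Osr2 divided with Gsdme, running from 6.60 to 10.63 in the lower set and from 9.41 to 13.00 in the upper set, and its part was not tested.

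**Figure D3:**
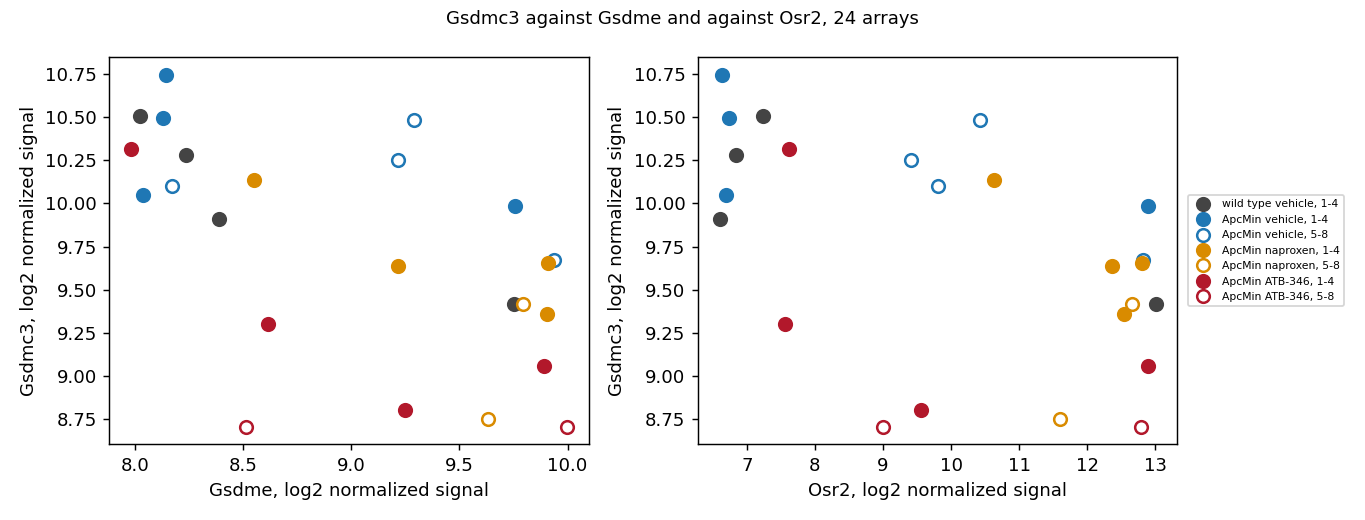
Gsdmc3 (vertical axes) against Gsdme (left) and Osr2 (right), all as normalized log2 signal in each of 24 arrays, coloured by group, with filled points for arrays numbered 1 to 4 and open points for 5 to 8. Wild-type array 4 is the wild-type array at high Gsdme and Osr2, with the lowest Gsdmc3 of its group, 9.42.

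**Figure D4:**
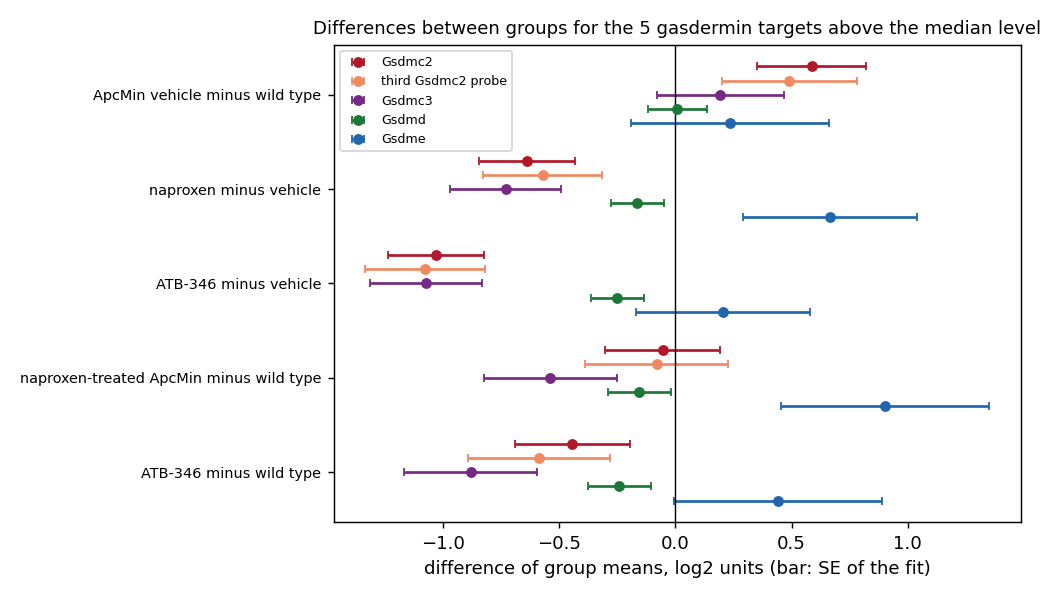
Differences of group means on the log2 scale (horizontal axis) with the SE of the fit as bars, for Gsdmc2, the third Gsdmc2 probe, Gsdmc3, Gsdmd and Gsdme in 5 contrasts (vertical axis). The 3 gasdermin C targets lie between -1.08 and -0.57 in both drug contrasts with vehicle. Gsdmd also lies below 0, at -0.25 ± 0.11 for ATB-346 and -0.16 ± 0.11 for naproxen. Gsdme lies above 0, at 0.21 ± 0.38 and 0.67 ± 0.38.

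Genes for the proteases and partners of gasdermins did not pass in any contrast of groups. Of 23 listed caspase and inflammasome genes 16 were tested, and limma called 0 of them in each group contrast, as it called 0% of all targets. For ATB-346 minus vehicle 6 were higher and 10 lower, with a median of -0.04 beside 0.01 for all targets, and 0 had an unadjusted p under 0.05. Casp8, the caspase described for gasdermin C, differed by -0.11 ± 0.08 (SE) and its group means ran from 9.94 to 10.11. Casp1, the inflammasome caspase, differed by 0.02 ± 0.08, and Casp6, an executioner caspase, by 0.13 ± 0.13. The cytokine genes Il18 and Il1b, whose products leave cells through gasdermin pores, differed by -0.24 ± 0.52 and -0.19 ± 0.14. By the numbering, 4 of the 16 were called in limma, 1 higher and 3 lower in arrays 5 to 8, against 37.1% of all targets.

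Type 2 response and tuft cell genes were mostly dim. Of 26 listed 8 were tested. Il4, Il13, Il5 and Il25, which encode type 2 cytokines, lay at or below the median level and were not tested. The same held for the IL-4 receptor subunit gene Il4ra and the tuft cell genes Pou2f3 and Trpm5. Limma called 0 of the 8 in each group contrast. Vehicle minus wild type had 7 higher and 1 lower, with a median of 0.07 beside -0.03 for all targets, and ATB-346 minus vehicle had 1 higher and 7 lower, with a median of -0.11 beside 0.01. Both contrasts share the vehicle arrays. Retnlb, a goblet cell antibacterial protein gene that type 2 cytokines induce, spread widely within groups. Wild-type arrays held it between 8.26 and 12.07, vehicle arrays between 9.85 and 14.79, naproxen arrays between 8.82 and 13.03 and ATB-346 arrays between 8.53 and 13.68. Its ATB-346 minus vehicle difference was -2.45 ± 1.02 (SE; limma, adjusted p = 0.610). The other members named were Clca1, a goblet cell secreted protein gene (-0.27 ± 0.31), Il13ra1, an IL-13 receptor subunit gene (-0.15 ± 0.20), and Dclk1, a tuft cell kinase gene (-0.13 ± 0.13).

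Of 12 listed goblet cell genes 9 were tested, and 0 were called in each group contrast. Wild-type arrays had a goblet mean between 11.32 and 12.01, vehicle arrays between 11.43 and 12.69, naproxen arrays between 11.33 and 12.19 and ATB-346 arrays between 11.13 and 12.20. For ATB-346 minus vehicle 2 were higher and 7 lower (median -0.15), with Spink4, a goblet cell peptide gene, at -0.44 ± 0.21 (SE) and Spdef, a goblet cell transcription factor gene, at -0.23 ± 0.36. On residuals from group and numbering the goblet mean correlated with Gsdmc2 (Pearson r = 0.513, permutation p = 0.0109, adjusted 0.0486 over 14 relations). The permutations made no allowance for the terms removed, which makes p too small, so a value this close to 0.05 is not taken as a pass. The rank correlation of the goblet mean with Gsdmc2 missed the threshold after adjustment (rho = 0.436, permutation p = 0.0346, adjusted 0.133). Without the 2 farthest arrays r was 0.455. With Gsdmc3 the goblet mean gave r = -0.10 (rho = -0.06, permutation p = 0.632 and 0.797). The type 2 mean, which shares Retnlb and Clca1 with the goblet list, gave r = 0.469 with Gsdmc2 (permutation p = 0.0222, adjusted 0.0622; rho = 0.430, p = 0.0380, adjusted 0.133) and r = 0.07 with Gsdmc3 (p = 0.759). The difference between the relations of the pair was not tested.

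Absorptive colonocyte genes, 18 tested of 24 listed, had 7 higher and 11 lower for ATB-346 minus vehicle (median -0.04) and 6 higher and 12 lower for naproxen minus vehicle (median -0.07). Limma called 0 in each group contrast. For naproxen minus vehicle 5 had an unadjusted p under 0.05, beside 790 of all 9048 tested targets. Ceacam1, an adhesion molecule gene, differed by -0.32 ± 0.21 (SE), Vil1, the brush border villin gene, by -0.15 ± 0.10, Emp1, an epithelial membrane protein gene, by 0.34 ± 0.37, and Cdx2, an intestinal transcription factor gene, by -0.15 ± 0.34. The colonocyte mean gave r = 0.318 with Gsdmc2 and 0.253 with Gsdmc3 on residuals (permutation p = 0.132 and 0.237, rho = 0.373 and 0.283). TGF-beta signalling genes were listed because the receptor gene Tgfbr2 is known to hold down gasdermin C in mouse colon tumours. Of 16 listed 11 were tested, 4 were higher and 7 lower for ATB-346 minus vehicle (median -0.02) and 0 were called. Tgfbr1, the partner receptor, differed by 0.19 ± 0.06 (limma, adjusted p = 0.375), Tgfbr3, a co-receptor gene, by 0.14 ± 0.11, Smad3, a signal transducer gene, by -0.14 ± 0.07, and Skil, a repressor of Smad proteins, by -0.17 ± 0.12.

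Likeness was measured as the mean of the Pearson r with Gsdmc2 and with Gsdmc3 over 24 arrays, for each of 9048 tested targets, as a description in which all points share group and numbering. The third Gsdmc2 probe ranked next after the pair itself, with a mean r of 0.84. Apart from predicted genes, the 10 highest included ITLNB and Itln1, targets for intelectins, which bind microbial sugars. Whether both targets read separate transcripts was not tested. The others were Ralb, a small GTPase gene, Mrpl53 of the mitochondrial ribosome, Supt20, a transcription coactivator gene, and Pnliprp2, a pancreatic lipase-related gene. Zfp710, a zinc finger gene, Mtfp1 of mitochondrial fission, Muc13, a membrane mucin gene, and Capza1, an actin-capping protein gene, completed the list. The mean r of these 10 targets lay between 0.59 and 0.64. Itln1 lay between 6.48 and 7.94 in wild-type arrays and between 6.81 and 10.51 in vehicle arrays. It lay between 6.10 and 8.43 in naproxen arrays and between 6.59 and 8.53 in ATB-346 arrays. The high values, from 10.27 to 10.51, were in vehicle arrays 2, 3, 5 and 8. The same arrays held the highest Gsdmc2, from 12.49 to 13.06, and the highest Retnlb, from 14.51 to 14.79. Why these went together was not tested. The residuals of Itln1 followed Gsdmc2 with r = 0.69 and Gsdmc3 with r = 0.33. The lowest mean r, between -0.66 and -0.61, belonged to Tmem42, a membrane protein gene, Scg5, a neuroendocrine secretory protein gene, Mrps35 of the mitochondrial ribosome, Fbxo21, an F-box protein gene, and Gpr19, an orphan receptor gene.

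With group and numbering removed, the order of likeness changed. The third Gsdmc2 probe again came next after the pair, with a mean r of 0.73. Apart from it and predicted genes, the highest was Cd55, the complement decay-accelerating factor gene, with r = 0.49 for Gsdmc2 and 0.81 for Gsdmc3. It was followed by Cox7a2, Ergic2, Kif2a, Nudt21, Med1, Ccdc97, Mlph, Osbpl3 and Rfc3, with a mean r from 0.63 to 0.54. The lowest were Upf2, of nonsense-mediated decay, Yap1, the Hippo pathway coactivator gene, Epn2, Atmin and Zcchc12, with a mean r from -0.65 to -0.59. With so many targets and 24 arrays, values of this size are a ranking only.

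Genes on either side of the cluster were mostly not measurable, and those tested showed small differences. On the far side of Gsdmc4, Cyrib, a regulator of actin, differed by -0.02 ± 0.04 (SE) for ATB-346 minus vehicle (limma, adjusted p = 0.996), and Efr3a, a plasma membrane lipid kinase scaffold gene, by -0.06 ± 0.08 (adjusted p = 0.991). Their mean levels were 6.73 and 8.41, and a low level such as that of Cyrib compresses differences on this scale. Of the others, Trib1, A1bg, Myc, Adcy8 and Oc90 lay at or below the median level and were not tested, and Asap1, Lratd2 and 4933412E24Rik had no target in the gene table.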

How the data were processed

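The labels' protocols name MagMAX RNA extraction, DNase treatment and biotinylated cRNA for Illumina MouseRef-8 v2.0 arrays. The authors deposited a gene table of average bead intensity, linear and without normalization per the file headers (GenomeStudio 1.7.0), and a table of 25697 probe intensities, used for probes and as an alternative. The sources used here do not give whether background was subtracted. Intensities were background-corrected (normexp, offset 50), quantile-normalized and set to log2 in limma 3.58.1 (R 4.3.3). Quantile normalization hides changes in total RNA, and the offset shrinks differences of dim targets. The filter kept 9048 of 18097 targets, those averaging over the median of all target means (log2 6.54). Array medians before normalization were 81.4 to 102.9, and precision is limited by how many arrays each group has. One linear model with group means was fitted to 24 arrays (lmFit, eBayes), with Benjamini-Hochberg adjustment over all tested targets, and the fit was tested on simulated data. Numbering was a term in its own fit. Correlations used 100000 permutations, or all orders for groups under 9 arrays (scipy 1.17.1). Permutations of residuals made no allowance for the terms removed.

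The members and the 14 gene lists were chosen with earlier results of these data known. Named genes were the pair, the other gasdermins, Casp1, Casp6 and Casp8, up to 4 members of each list described with the largest ATB-346 minus vehicle difference, the 10 most and 5 least alike targets, predicted genes excluded, and up to 5 neighbours on each side of the cluster, and some genes the rule selects are not reported here. Symbols came from RefSeq (14096 targets), synonyms (3025) or the file (976). Alternatives changed background correction, normalization, filter, source table, blocks and covariates, and left out each array.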

Additional observations from a re-analysis of the deposited data

Results flagged for a closer look

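Gsdmc3 was log2 10.315 in ATB-346 array 4, while the nearest other array of its group lay at 9.30. The gap is 0.631 of the whole range of the group, above Dixon's 95% critical value for a group of 6. The ratio of Gsdmc2 to Gsdmc3 was lowest in the same array, log2 1.2011 against 2.08 in the nearest other ATB-346 array, a gap of 0.776 of the range. In all, 52 sets of values were examined this way, and chance flags about 1 in 20. Without this array ATB-346 minus vehicle for Gsdmc3 was -1.31 in place of -1.07. Gsdmc2 in this array, 11.52, was the highest of its group.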

How the results depend on the processing

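Depth cannot be given for bead arrays, and groups of 4 to 8 arrays limit what can be seen. With 1 array left out at a time, Gsdmc2 in naproxen-treated minus wild-type colon ran from -0.197 to 0.0133 (above 0 without wild-type 1, naproxen 2 or naproxen 5) and its numbering shift from -0.102 to 0.0731, with 9 of 24 values below 0, all far from the threshold. The numbering shift of Gsdmc3 ran from -0.51 to -0.357, and Gsdmc3 in naproxen-treated minus wild type from -0.741 (without wild-type 4) to -0.379 (without wild-type 2). The count of called targets ran from 0 to 1 for ATB-346 against vehicle, against naproxen and against wild type and for naproxen against vehicle and against wild type, and from 2921 to 3389 for the numbering. The 1 target was called without vehicle 1 or ATB-346 4 (ATB-346 minus vehicle), vehicle 1 or ATB-346 3 (minus wild type), ATB-346 2 (minus naproxen), ATB-346 1 (naproxen minus vehicle) and vehicle 1 (naproxen minus wild type). For ATB-346 minus vehicle the count of 0 became 1 with the probe table, 28 with the numbering as a block, 6 with the replicate block, 16 in replicates 1 to 4 only, 1 with numbering and acinar mean and 53 with numbering and Osr2. Array-median scaling gave 2078 in place of 3358 targets for the numbering, and the cause of these moves was not tested. Gsdmc2 in naproxen-treated minus wild type turned to 0.0525 with numbering and Osr2, its numbering shift was -0.51 with the third probe in its place, and the Gsdmc3 shift of -0.446 passed alone in the exact permutation test (p = 0.0319). The covariate fits and the third probe were chosen after seeing the data. With the replicate block naproxen-treated minus wild type was -0.037 for Gsdmc2 and -0.356 for Gsdmc3 (limma, adjusted p = 0.971 and 0.728). Same-numbered arrays of different groups correlated between -0.68 and 0.69, over 0.1 in 19 of 30 pairs, against 64 of 182 pairs of different number. With the numbering term removed it was 14 of 30 against 81 of 182 pairs, with a median r of 0.07 and 0.02. The numbers were therefore not taken to pair the samples. The other 674 values kept their call, stayed within 1 SD of the value given, or were counts within 1.5 times. Among these, 1 changed sign, Gsdmc3 in vehicle minus wild type, which ran from -0.0104 (without wild-type 4) to 0.352 (without wild-type 2).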
